A study of Mus musculus with 10 samples.

Results

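Igfbp4, Dapl1, Acpp and Vipr1 are 4 genes with large decreases in Helios+ regulatory T cells, and their normalized counts were followed across 10 RNA-seq libraries. They are 4 of the 13252 genes in the deposited table. They had been picked from the same table because they were far lower in Helios+ than in Helios- libraries and because the groups did not overlap. The size of these decreases is therefore a description, and no test of it is given. The libraries were made from total RNA of mouse regulatory T cells (Treg cells), 5 from cells sorted as CD4+RFP+GFP+ and labelled Helios+, and 5 from cells sorted as CD4+RFP+GFP- and labelled Helios-. The study asked how Treg cells with and without Helios, the transcription factor encoded by Ikzf2, differ. The series' design text speaks of a knockout, whereas the labels of the single samples describe sorted populations, and the groups used here follow the samples. The sources used here do not give what RFP reports, or the strain, age and tissue of the mice. They do not say either that each library of a group comes from a mouse of its own. The p-values thus set a group difference against the spread between these libraries, and that spread may be technical.

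Treg cells hold back other immune cells, and they range from resting cells that recirculate through lymphoid organs to activated effector cells. Igfbp4 encodes a secreted protein that binds insulin-like growth factors (IGFs) and keeps them from their receptor. Vipr1 encodes VPAC1, a receptor for vasoactive intestinal peptide (VIP) and PACAP that raises cyclic AMP (cAMP) through the G protein Gs, and that resting T cells are known to carry. Acpp encodes prostatic acid phosphatase, which as a membrane protein can dephosphorylate extracellular AMP to adenosine. Dapl1 encodes a small protein related to the death-associated protein Dap, studied mostly in epithelia.

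The promoters of the 4 genes are shown because these genes were chosen for being low in the same libraries. Each sequence runs 5′ to 3′ on the strand of its gene, from 250 bases before the annotated start to 50 bases after it, and comes from RefSeq on build GRCm38.p6. Capitals mark the letters of any motif searched, on either strand.
Igfbp4 (chr11:99040994-99041293, plus strand): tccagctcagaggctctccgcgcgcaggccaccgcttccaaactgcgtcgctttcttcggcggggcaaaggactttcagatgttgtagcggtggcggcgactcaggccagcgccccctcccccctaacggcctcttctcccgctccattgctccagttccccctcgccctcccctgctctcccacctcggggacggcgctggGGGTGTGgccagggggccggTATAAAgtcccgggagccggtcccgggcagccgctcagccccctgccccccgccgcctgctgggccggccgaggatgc
Dapl1 (chr2:59484403-59484702, plus strand): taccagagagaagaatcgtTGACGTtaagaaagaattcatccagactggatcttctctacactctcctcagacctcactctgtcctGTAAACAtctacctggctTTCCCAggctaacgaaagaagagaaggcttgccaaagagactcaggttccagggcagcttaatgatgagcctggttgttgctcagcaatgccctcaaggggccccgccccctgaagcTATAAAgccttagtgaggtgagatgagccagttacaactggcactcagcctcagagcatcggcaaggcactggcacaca
Acpp (chr9:104337673-104337972, minus strand): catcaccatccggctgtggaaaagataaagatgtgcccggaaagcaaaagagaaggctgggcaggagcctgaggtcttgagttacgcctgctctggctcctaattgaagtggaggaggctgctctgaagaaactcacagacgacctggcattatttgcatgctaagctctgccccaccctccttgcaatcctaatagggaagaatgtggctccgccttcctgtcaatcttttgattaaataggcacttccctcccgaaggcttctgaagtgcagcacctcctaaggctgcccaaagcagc
Vipr1 (chr9:121642466-121642765, plus strand): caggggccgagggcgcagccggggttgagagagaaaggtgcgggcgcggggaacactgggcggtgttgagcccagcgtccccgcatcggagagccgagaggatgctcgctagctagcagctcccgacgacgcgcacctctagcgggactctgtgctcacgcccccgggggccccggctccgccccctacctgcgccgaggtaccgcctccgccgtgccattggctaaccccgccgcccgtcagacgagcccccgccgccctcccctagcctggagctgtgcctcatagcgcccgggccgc
The motif searched for Ikaros factors was TGGGAA, that for forkhead factors TGTTTAC, that for Runx factors TGTGGT and that for KLF factors CACACCC. For the factors TCF1 and LEF1 the letters were CTTTGA or, as the other form, CTTTGT. The core searched for CREB was TGACGT. The TATA box, TATAAA, was added after the sequences had been seen.

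The promoters differed in base composition and shared few of these letters. G and C made up 71.3% of the Igfbp4 window and 73.7% of the Vipr1 window, against 51.0% for Dapl1 and 52.0% for Acpp, and the median of the 32851 RefSeq windows was 52.7%. CG dinucleotides numbered 27 for Igfbp4 and 35 for Vipr1, but 5 for Dapl1 and 6 for Acpp, with a median of 7 over all windows. Igfbp4 and Dapl1 each held TATAAA on their own strand, with its first base 28 and 29 bases before the start. At any position, 8.32% of all windows hold this motif on the gene's strand and 13.6% on either strand. Igfbp4 also held the reverse complement of CACACCC, 48 bases before the start, which 7.95% of windows hold on either strand. Dapl1 held TGACGT at 231 bases before the start and the reverse complements of TGTTTAC and TGGGAA at 164 and 146 bases. These occur in 7.51%, 3.65% and 25.6% of windows. In the Acpp and Vipr1 windows none of the 8 motifs was found. No searched motif was shared by all 4 windows, and matched letters do not show that a factor binds.

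The labels were checked on Ikzf2, Foxp3 and Cd4. Ikzf2 averaged 10367 ± 456 normalized counts in Helios+ and 487 ± 56.5 in Helios- libraries (SD, n = 5 each). Foxp3, the factor that defines Treg cells, averaged 3570.1 ± 201 in Helios+ and 3526 ± 226 in Helios- libraries, and the groups overlapped (adjusted p by limma = 0.879). Of 4 Treg marker genes tested, Foxp3 among them, limma called 3 higher in Helios+ and 0 lower. These were Ikzf4 (log2 change 1.64 ± 0.10, SE), Ctla4 (0.58 ± 0.18) and Il2ra (0.25 ± 0.08). Cd4 averaged 3208 ± 276 in Helios+ and 3334 ± 446 in Helios- libraries, again with overlap. Depth was 4872348 to 6948692 reads per library. Marker genes of CD8 T, B and NK cells were present, with Helios+ means of 17.5 to 311 normalized counts. The Helios+ means of Igfbp4, Dapl1, Acpp and Vipr1, given below, lie within that range. Of the 11 markers tested limma called 0 as different, against 24.8% over all genes, with 1 at an unadjusted p under 0.05. The calls with edgeR and DESeq2 were also 0. The summed level of 5 B cell markers was 1073 to 1598 normalized counts in Helios+ and 1227 to 1802 in Helios- libraries. None of the 11 markers was at 0 in any library. With the replicate block, limma called Cd8b1 lower in Helios+, 1 of 2 CD8 T cell markers tested. It also called 2 of 5 B cell markers lower, Cr2 among them, and 0 of 4 NK cell markers. The block called 0 of these markers higher. Over all genes it called 18.5% lower and 18.9% higher. Csf1r was the 1 myeloid marker of 5 tested that was called higher in Helios+, at 61.6 ± 7.30 against 36.9 ± 5.84 in Helios-, and the summed myeloid level was 270.1 to 529 in Helios+ and 201 to 339.7 in Helios- libraries. The part of other cell types in the values below was not tested. In sorted bulk samples, fewer cells with a transcript and less of it per cell cannot be told apart.

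Igfbp4 was the most abundant of the 4 transcripts by count and showed the largest decrease. It had 271, 289, 303, 316 and 330.3 normalized counts in Helios+ replicates 1 to 5, against 1168, 1396, 2194, 1937 and 1692 in Helios- replicates 1 to 5. The Helios+ libraries lay close together, and the lowest Helios- library was still 3.54 times the highest Helios+ library. The means were 302 ± 23.0 in Helios+ and 1677 ± 410.3 in Helios- libraries (SD, n = 5 each). Helios+ cells thus had 18.0% of the Helios- level, a log2 change of -2.44 ± 0.14 (SE) for normalized count + 1. Igfbp4 lies on chromosome 11 at 99041244 to 99054392, plus strand (mm10), and shares no exon bases with another annotated gene, which also holds for Dapl1, Acpp and Vipr1.

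Dapl1 had 47.2, 41.8, 49.6, 44.7 and 67.2 normalized counts in Helios+ replicates 1 to 5, against 156, 227, 204, 162 and 182 in Helios- replicates. Helios+ replicate 5 was the highest of its group, and it stayed below every Helios- library. The means were 50.1 in Helios+, with a coefficient of variation of 20.0%, and 186 ± 29.6 in Helios- libraries, which leaves 26.9% of the Helios- level and gives a log2 change of -1.88 ± 0.15 (SE). Dapl1 lies on chromosome 2 at 59484653 to 59505020, plus strand.

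Acpp, the phosphatase gene, had 58.7, 76.1, 50.4, 40.8 and 42.9 normalized counts in Helios+ replicates 1 to 5, against 189.8, 245, 239, 186 and 149.9 in Helios- replicates. Replicate 2 was the highest library in both groups, and the groups did not overlap, with the lowest Helios- library at 1.97 times the highest Helios+ library. The means were 53.8 ± 14.3 in Helios+ and 202 ± 39.8 in Helios- libraries, with 26.7% of the Helios- level left and a log2 change of -1.90 ± 0.18 (SE). The gene lies on chromosome 9 at 104288251 to 104337748, minus strand. Its counts do not separate the secreted from the membrane form of the protein.

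Vipr1, the VIP receptor gene, had 60.8, 89.5, 73.5, 104.9 and 92.7 normalized counts in Helios+ replicates 1 to 5, against 244, 238, 297, 324 and 354 in Helios- replicates. The lowest Helios- library was 2.27 times the highest Helios+ library. The means were 84.3 ± 17.3 in Helios+ and 291 ± 50.4 in Helios- libraries, with 28.9% of the Helios- level left and a log2 change of -1.79 ± 0.15 (SE). Vipr1 lies on the same chromosome as Acpp, at 121642716 to 121672954, plus strand. All 4 genes passed the filter of a mean of at least 10 normalized counts over the 10 libraries, and each also exceeded 10 in every Helios+ library, the lowest value being 40.8 for Acpp.

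**Figure D1:**
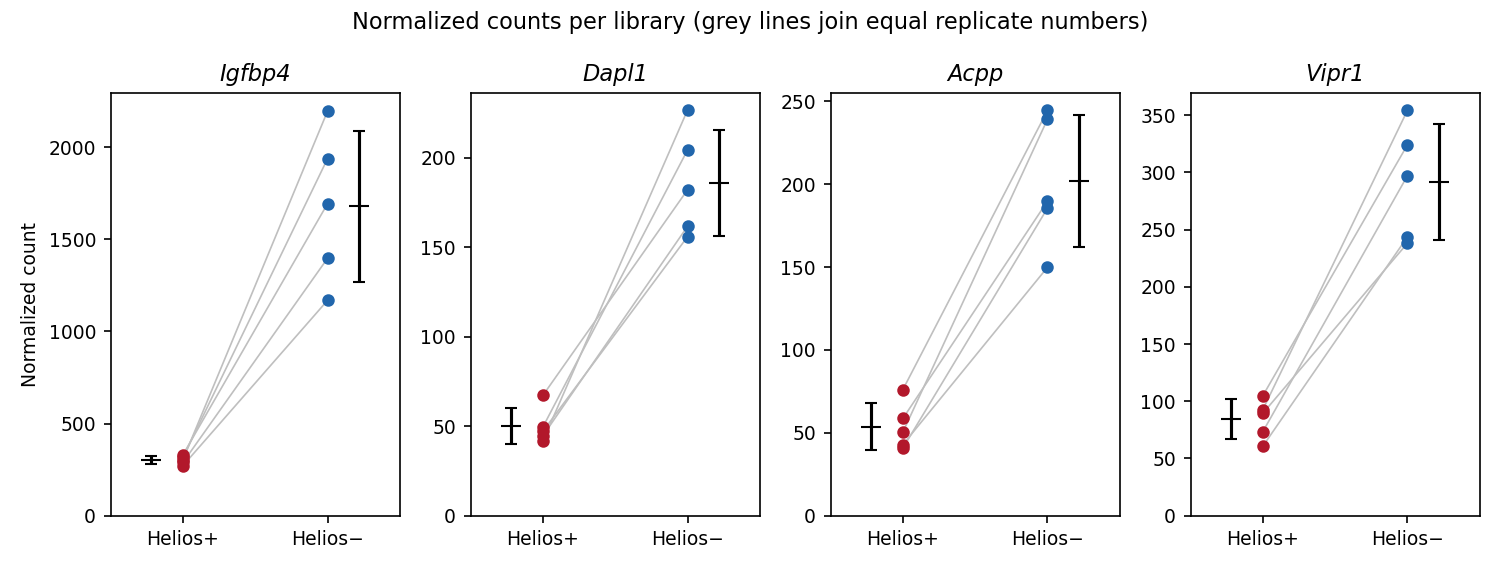
Normalized counts (vertical axes, starting at 0) of Igfbp4, Dapl1, Acpp and Vipr1 in the 5 Helios+ and 5 Helios- libraries, with a point per library, grey lines joining equal replicate numbers and black bars for the mean and SD. In each panel all Helios+ points lie below all Helios- points, and the Igfbp4 points spread from 1168 to 2194 in Helios- but only from 271 to 330.3 in Helios+ libraries.

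These values were what chose the genes, so their place among all genes is only a description. Of 10718 genes tested, limma called 24.8% as different at an adjusted p under 0.05, 14.1% higher and 10.7% lower in Helios+ cells. With the replicate number as a block 37.3% were called, 18.9% higher and 18.5% lower. All 5 Helios+ libraries lay below all 5 Helios- libraries for 8.37% of the genes tested. Ranked by log2 change among the 737 genes (6.88%) that were called lower, had a mean of at least 50 and did not overlap, Igfbp4 was number 5, Acpp 10, Dapl1 11 and Vipr1 12. Next above Igfbp4 stood Myo6, an unconventional myosin, at -2.89 ± 0.14 (SE, log2 change), and next below it Slc16a5, a monocarboxylate transporter family gene, at -2.40 ± 0.23. Itgb3 stood just above Acpp, at -1.92 ± 0.08. Just outside, after Vipr1, came Als2cl at -1.75 ± 0.14, with 303 normalized counts in Helios+ and 1032 in Helios- libraries.

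Per kilobase of exon the 4 genes fell into a high and a low pair. In Helios+ libraries Dapl1, with exons of only 679 bases, averaged 73.8 ± 14.7 normalized counts per kb and Igfbp4 68.4 ± 5.20, and their ranges overlapped. Vipr1 followed at 14.5 ± 2.98 and Acpp at 7.34 ± 1.95 per kb, with ranges of 10.5 to 18.1 and 5.57 to 10.4 that narrowly did not overlap. In Helios- libraries Igfbp4 averaged 379.9 ± 92.9 per kb and Dapl1 274 ± 43.5, again with overlapping ranges, ahead of Vipr1 at 50.2 ± 8.69 and Acpp at 27.5 ± 5.43. Among 10584 tested genes with an annotated length, these levels placed Igfbp4 above 65.0% of genes in Helios+ and above 95.5% in Helios- libraries. Dapl1 stood above 67.5% in Helios+ and 93.1% in Helios- libraries. Vipr1 stood above 21.8% in Helios+ and 55.4% in Helios- libraries, and Acpp above 10.3% in Helios+ and 37.9% in Helios- libraries. In Helios+ libraries Igfbp4 and Dapl1 were thus still above the median gene, while Vipr1 and Acpp were below it. Length here is that of all annotated exons of a gene merged. It can exceed the length of the transcript expressed and so lower the level per kb, which was not tested.

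**Figure D2:**
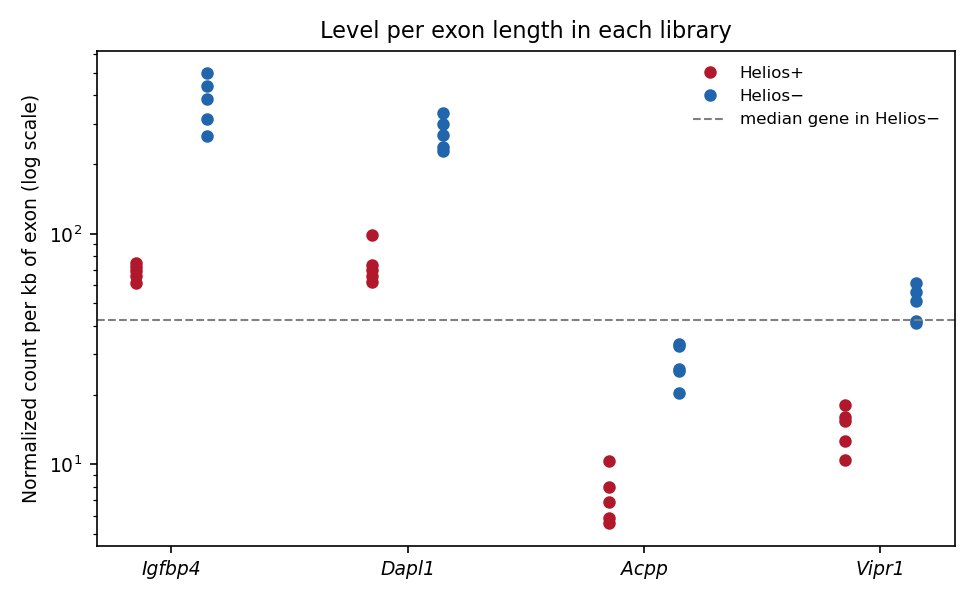
Normalized count per kilobase of exon (log axis) of the 4 genes, with a point per library, Helios+ left of Helios- for each gene, and a dashed line at the median of the tested genes in Helios- libraries (42.1). Igfbp4 and Dapl1 lie above the line in both groups, while Acpp lies below it in both.

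The spread between libraries was not alike for the 4 genes. It is set beside that of other tested genes whose mean in the same group was within 1.5 times that of the gene. The SD of log2 values of Igfbp4 was 0.11 in Helios+ and 0.36 in Helios- libraries. Its SD exceeded that of 37.5% of 2280 like genes in Helios+ libraries and of 93.4% of 754 in Helios- libraries, where the median was 0.13. Acpp had SDs of 0.36 in Helios+ and 0.29 in Helios- libraries, above 83.1% and 86.5% of like genes. Vipr1 had SDs of 0.31 in Helios+ and 0.25 in Helios- libraries, above 84.8% and 82.5%. The spread of Dapl1 was nearer to the median, with SDs of 0.26 in Helios+ and 0.23 in Helios- libraries, above 52.0% and 68.6%. Counting error alone would give a coefficient of variation of 13.9% for Dapl1 in Helios+ libraries, where 20.0% was seen, and of 2.45% for Igfbp4 in Helios- libraries, where 24.5% was seen.

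The libraries that were high or low differed from gene to gene. Igfbp4 deviated from its group mean to the same side in Helios+ and Helios- libraries of equal number in 5 of 5 pairs, being lowest in replicate 1 of both groups, by 0.15 in Helios+ and 0.49 in Helios- libraries on the log2 scale. For Dapl1, Acpp and Vipr1 this held in 3 of 5 pairs each. Acpp was highest in replicate 2 of both groups, and Vipr1 stood above its group mean in replicates 4 and 5 of both. Dapl1 went opposite ways in replicate 2, which was the lowest Helios+ and the highest Helios- library. The fold difference within pairs, Helios- over Helios+, therefore ranged from 4.30 to 7.23 for Igfbp4, from 2.71 to 5.42 for Dapl1, from 3.21 to 4.74 for Acpp and from 2.66 to 4.04 for Vipr1. The share of reads from the ribosomal precursor Rn45s was 8.54% in Helios- replicate 1, where Igfbp4 was lowest, and 18.6% in Helios- replicate 3, where it was highest, and its part in the Igfbp4 values was not tested.

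**Figure D3:**
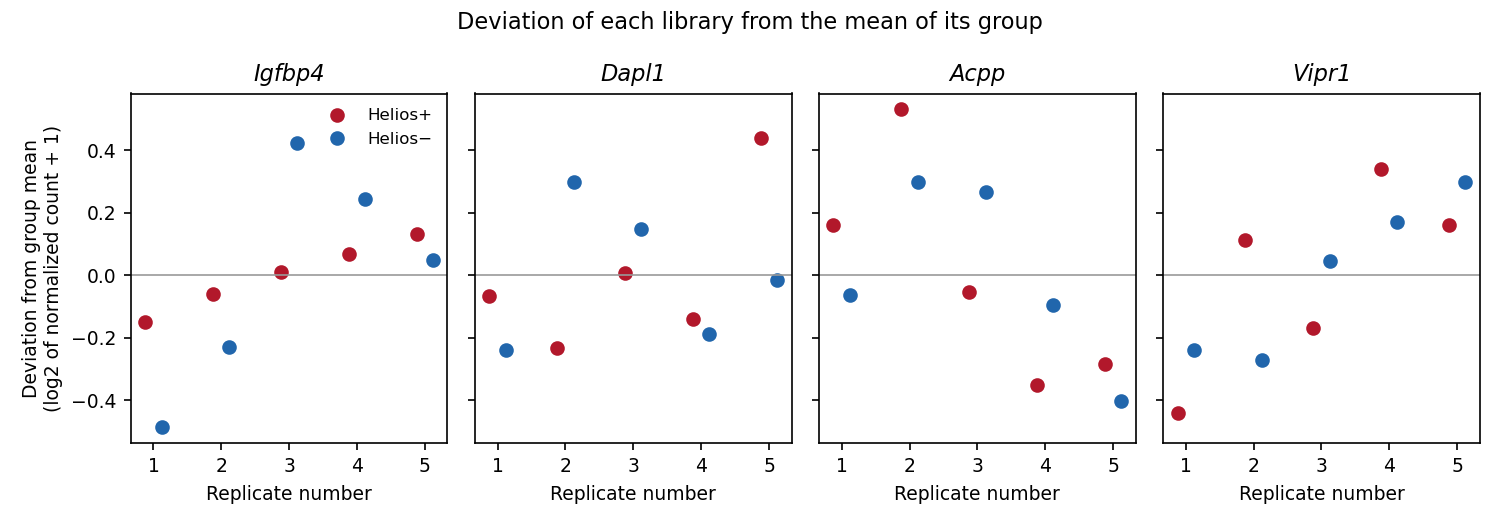
Deviation of each library from its group mean, in log2 units of normalized count + 1, against the replicate number, with Helios+ in red left of Helios- in blue. The Igfbp4 points of equal number lie on the same side of 0 in 5 of 5 pairs, and those of the other genes in 3 of 5.

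Likeness of profile was measured as the root mean square difference of log2 values, centred on each gene's mean, over the 10 libraries, among 8496 other genes with a mean of at least 50. Since all 4 genes differ strongly between the groups, genes with a decrease of similar size come out as the nearest. Itgb3, the integrin subunit beta 3, was among the 5 nearest of all 4 genes, at differences of 0.35 from Igfbp4, 0.29 from Dapl1, 0.23 from Acpp and 0.28 from Vipr1. Atp1b1, a subunit of the sodium and potassium pump, was the nearest to Acpp, at 0.18, and was also among the 5 nearest of Igfbp4 and Dapl1. The nearest to Igfbp4 was Slc16a5 at 0.31, to Dapl1 Ly6a (Sca-1) at 0.23, and to Vipr1 Eya2 at 0.26. The median gene lay 1.24 from Igfbp4 and 0.93 from Vipr1. Among the 4 genes themselves the differences ran from 0.34 between Dapl1 and Vipr1 to 0.48 between Igfbp4 and Acpp.

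Around Igfbp4, too few genes of the IGF axis were tested to read a direction from them. Of 22 genes listed, 8 were in the table and 4 were tested. Limma called 2 of these higher and 0 lower in Helios+ cells, where over all genes 14.1% were called higher and 10.7% lower. There were also 0 lower at an unadjusted p under 0.05 and with edgeR and DESeq2. Igf1r, the receptor that IGF-binding proteins keep IGFs away from, averaged 1776 ± 167 normalized counts in Helios+ and 1012 ± 27.5 in Helios- libraries, a log2 change of 0.81 ± 0.07 (SE; adjusted p by limma = 5.01e-07). Igf2r, which clears IGF2, averaged 2151 ± 91.5 in Helios+ and 1877 ± 146 in Helios- libraries (log2 change 0.20 ± 0.07; adjusted p by limma = 0.0415). Omitting a single library ended this call for 4 Helios+ libraries (replicates 2, 3, 4 and 5) and 3 Helios- libraries (replicates 1, 4 and 5), with limma adjusted p-values of 0.0961, 0.0946, 0.0733, 0.0746, 0.0709, 0.105 and 0.0600, and the count of called genes was then 1. These fits had no replicate block. With the block and all libraries, the adjusted p by limma for Igf2r was 0.0011. Insr, the insulin receptor gene, had a log2 change of -0.07 ± 0.09 (adjusted p by limma = 0.640). Of the other IGF-binding protein genes only Igfbp7 was in the table, at 4.53 ± 4.51 in Helios+ and 0.765 ± 1.06 in Helios- libraries, under the filter on low values.

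Around Vipr1, other Gs-coupled receptors went both ways. Of 7 other tested receptors that raise cAMP, 3 were called higher and 2 lower in Helios+ cells, or 71.4% in all against 24.8% over all genes. The median log2 change was 0.17 against -0.02 over all genes. The prostaglandin E2 receptor gene Ptger2 averaged 175 ± 4.76 normalized counts in Helios+ and 43.5 ± 7.19 in Helios- libraries, a log2 change of 2.00 ± 0.12 (SE; adjusted p by limma = 1e-08). Adora2a, an adenosine receptor gene, averaged 193 ± 28.8 in Helios+ and 61.9 ± 8.92 in Helios- libraries (log2 change 1.63 ± 0.13; adjusted p by limma = 1.87e-07), and Ptger4 rose by 0.84 ± 0.10. Calcrl was among those called lower, averaging 232 ± 19.5 in Helios+ and 307 ± 45.1 in Helios- libraries (log2 change -0.39 ± 0.11; adjusted p by limma = 0.0139). Vipr2, the other VIP receptor, was near the limit of detection, at 4.86 ± 1.42 in Helios+ and 2.77 ± 2.07 in Helios- libraries.

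Downstream of these receptors calls also went both ways, with more lower than higher. Of 25 tested genes of VIP, cAMP and protein kinase A signalling other than Vipr1, 2 were called higher and 6 lower, or 32.0% in all against 24.8% over all genes, with a median log2 change of -0.07. By direction, 14.1% of all genes were called higher and 10.7% lower. The replicate block called 4 higher and 8 lower, and without a filter on low values, or without Helios+ replicate 1, the calls were 4 higher and 5 lower. The phosphodiesterase gene Pde3b, which degrades cAMP, averaged 187 ± 23.3 normalized counts in Helios+ against 586 ± 33.2 in Helios- libraries, a log2 change of -1.65 ± 0.09 (SE; adjusted p by limma = 2.85e-09). Rapgef4, a cAMP-activated exchange factor, fell by 1.37 ± 0.17 on the log2 scale, the adenylyl cyclase gene Adcy9 by 1.11 ± 0.14 and Pde4b by 0.51 ± 0.07. The genes called higher were Gnas, which encodes the alpha subunit of Gs, by 0.55 ± 0.09, and Pde7a, by 0.57 ± 0.09.

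For Acpp, the other phosphatases and adenosine genes divided as well. Of 24 tested, 7 were called higher and 6 lower in Helios+ cells, with a median log2 change of 0.11. That is 54.2% in all, against 24.8% over all genes. Entpd1 (CD39), which makes AMP outside the cell, averaged 267 ± 29.5 normalized counts in Helios+ and 112 ± 10.9 in Helios- libraries (log2 change 1.24 ± 0.10; adjusted p by limma = 2.22e-07). Nt5e (CD73), the ectonucleotidase that makes adenosine from AMP as Acpp can, averaged 1452 ± 144 in Helios+ and 710.3 ± 121 in Helios- libraries (log2 change 1.04 ± 0.11; adjusted p by limma = 3.38e-06). Entpd5 fell by 0.75 ± 0.10 on the log2 scale, and Acpl2 by 1.45 ± 0.18. Among the acid phosphatases Acp5, the tartrate-resistant enzyme, averaged 312 ± 62.5 in Helios+ and 493 ± 110.7 in Helios- libraries (log2 change -0.65 ± 0.15; adjusted p by limma = 0.00474). Acp1, Acp2 and Acp6 had log2 changes of 0.10, 0.34 and -0.05 and were not called, although Acp2 was called with the replicate block (adjusted p by limma = 0.0280) and without Helios- replicate 4 (adjusted p by limma = 0.0241).

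Dap, the paralogue of Dapl1, went the other way. It averaged 283 ± 26.8 normalized counts in Helios+ and 186 ± 36.5 in Helios- libraries, a log2 change of 0.62 ± 0.13 (SE; adjusted p by limma = 0.00165). Of 5 tested genes that share the death-associated name, Dap was the 1 higher and Dapk1, a calcium and calmodulin regulated kinase, the 1 lower, at 61.7 ± 8.50 in Helios+ and 145 ± 6.25 in Helios- libraries (log2 change -1.23 ± 0.12; adjusted p by limma = 1.01e-06). Called genes were thus 40% of the 5, against 24.8% over all genes. Dap3, a mitochondrial ribosome protein, had a log2 change of -0.21 ± 0.08 and an adjusted p of 0.0598 in limma, which became 0.0297 with the replicate block, 0.0451 with quantile normalization and 0.0446 without Helios- replicate 5. Stk17b had a log2 change of -0.06 ± 0.08 (adjusted p by limma = 0.611), which became 0.019 with quantile normalization.

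Genes known from resting T cells were mostly lower in Helios+ cells, and genes of T cell activation mostly higher. Both lists were drawn up with earlier results of these data known, so their counts are a description. Over all genes 10.7% were called lower and 14.1% higher. Of 30 resting genes tested, limma called 24 lower and 0 higher, with 1 higher at an unadjusted p under 0.05 and 1 with edgeR and with DESeq2. The list's median log2 change was -0.67. Txk, a Tec family kinase, averaged 256 ± 29.6 normalized counts in Helios+ and 662 ± 55.7 in Helios- libraries (log2 change -1.37 ± 0.09; adjusted p by limma = 1.87e-08), and Pecam1 775 ± 34.3 in Helios+ and 1509 ± 67.0 in Helios- libraries (log2 change -0.96 ± 0.06). Satb1 fell by 1.35 ± 0.07 and Il6ra by 1.25 ± 0.06 on the log2 scale. The decreases of Igfbp4, Dapl1, Acpp and Vipr1, of -2.44 to -1.79, were each larger than the largest among these 30 genes. The 4 were chosen for large decreases in this same comparison, so nothing further is read from that order. Of 20 activation genes, 18 were higher and limma called 0 lower, with 0 lower at an unadjusted p under 0.05, with edgeR and with DESeq2, while the replicate block called 1 lower. Their median log2 change was 1.09, and those with the smallest p were Pdcd1 (3.67 ± 0.15), Cd83 (2.58 ± 0.11), Tnfrsf9 (2.79 ± 0.13) and Tnfrsf4 (1.82 ± 0.09).

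**Figure D4:**
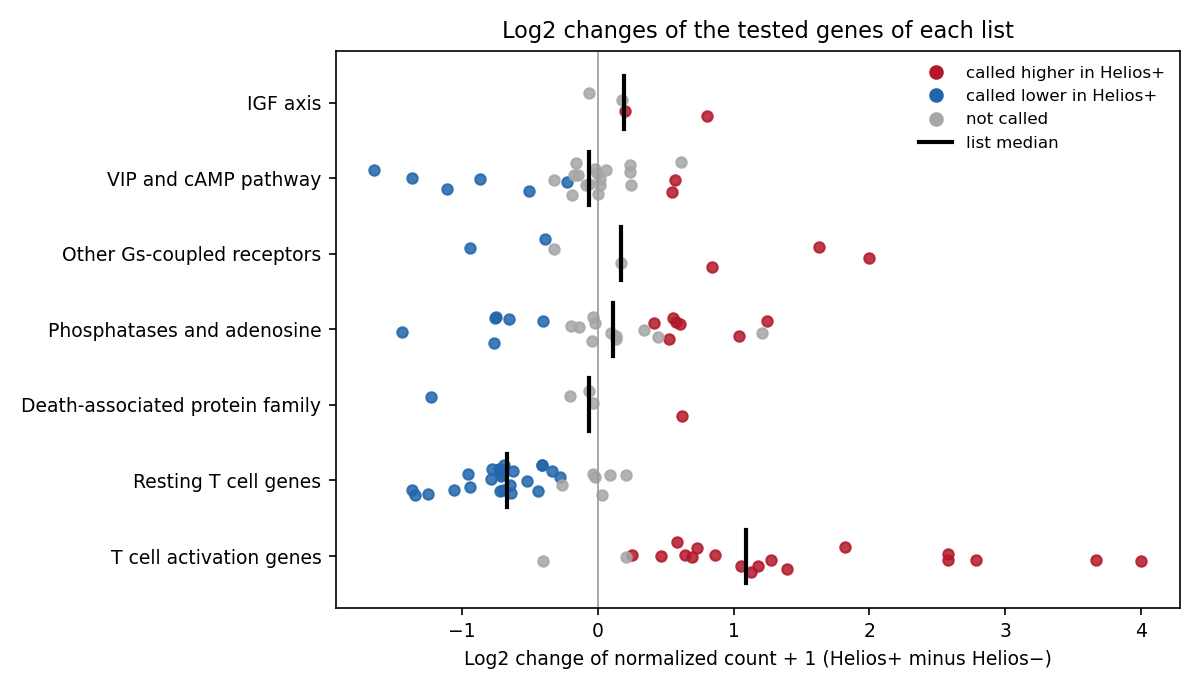
Log2 change (Helios+ minus Helios-, on normalized counts + 1) of tested genes of each list, with a point per gene coloured by its limma call and a black bar at the list median. The resting list has its median at -0.67 and the activation list at 1.09, while the lists around Vipr1, Acpp and Dapl1 spread to both sides of 0. In the IGF axis 2 of 4 genes were called higher and 0 lower, against 14.1% and 10.7% of all genes.

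The chromosomal neighbours were examined because position played no part in the choice. The 3 nearest tested genes on each side within 500 kb gave 18 genes, of which 3 were called higher and 3 lower in Helios+ cells, or 33.3%, against 24.8% over all genes. Leaving out any one of Helios+ replicates 1 and 2 and Helios- replicates 4 and 5 gave 2 higher and 2 lower, and of genes with a mean of at least 50 there were 1 higher and 3 lower. Igfbp4 lies between Top2a, 17.1 kb away, and Ccr7, 89.8 kb away on the other side. Top2a, the topoisomerase of dividing cells, averaged 407 ± 55.6 normalized counts in Helios+ and 182 ± 20.6 in Helios- libraries, a log2 change of 1.15 ± 0.11 (SE; adjusted p by limma = 9.95e-07). Ccr7, the receptor that guides T cells into lymph nodes, averaged 500.4 ± 59.7 in Helios+ and 835 ± 151 in Helios- libraries (log2 change -0.72 ± 0.12; adjusted p by limma = 0.000322). The nearest neighbours of Igfbp4 on its 2 sides thus differed in direction.

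Farther from Igfbp4, the retinoic acid receptor gene Rara had a log2 change of -0.34 ± 0.10 (adjusted p by limma = 0.0288). Leaving out Helios+ replicate 1 or 2, or Helios- replicate 3, 4 or 5, ended its call, with limma adjusted p-values of 0.0646, 0.0820, 0.0539, 0.0806 and 0.0803. These fits had no replicate block. With the block and all libraries, the adjusted p by limma for Rara was 3.44e-05. The weakly expressed keratin gene Krt222 averaged 13.99 ± 2.04 normalized counts in Helios+ and 7.19 ± 3.34 in Helios- libraries (adjusted p by limma = 0.0463). Quantile normalization ended this call (adjusted p by limma = 0.296), as did leaving out Helios- replicate 4 or 5 (0.111 and 0.109) or any single Helios+ library (0.0566 to 0.0980). With the block and all libraries, the adjusted p by limma for Krt222 was 0.0318. Smarce1 was not called (log2 change 0.09 ± 0.08), nor was Cdc6 (0.78 ± 0.28; adjusted p by limma = 0.0563), which edgeR called (edgeR adjusted p = 0.0478), as did limma without Helios- replicate 2 (adjusted p = 0.0230).

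Next to Dapl1, Tanc1, 107.0 kb away, averaged 184 ± 19.3 normalized counts in Helios+ and 316 ± 34.4 in Helios- libraries (log2 change -0.78 ± 0.10; adjusted p by limma = 1.9e-05). Pkp4 on the other side, 129.4 kb away, had a log2 change of 0.06 ± 0.09 (adjusted p by limma = 0.715). Ccdc148, at 324.0 kb, was higher, at 19.8 ± 5.39 in Helios+ and 4.84 ± 2.49 in Helios- libraries (log2 change 1.95 ± 0.39; adjusted p by limma = 0.00155), and Wdsub1 and Baz2b were not called.

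The neighbours of Acpp and Vipr1 gave no calls in limma, edgeR or DESeq2, with 0 of 3 for Acpp and 0 of 4 for Vipr1. With 24.8% called by limma over all genes, 0 among so few genes is not read as a result. At an unadjusted limma p under 0.05 there were 0 for Acpp and 1 for Vipr1. Dnajc13, 25.3 kb from Acpp, averaged 1273 ± 60.9 normalized counts in Helios+ and 1350.5 ± 92.4 in Helios- libraries (log2 change -0.08 ± 0.06; adjusted p by limma = 0.391). Acad11 had a log2 change of 0.24 ± 0.16. Sec22c, 7.1 kb from Vipr1, averaged 122 ± 9.59 in Helios+ and 104.5 ± 6.96 in Helios- libraries (log2 change 0.22 ± 0.10; adjusted p by limma = 0.135). Deb1, Nktr and Trak1 had log2 changes of 0.54 ± 0.30, -0.12 ± 0.17 and -0.07 ± 0.07.

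**Figure D5:**
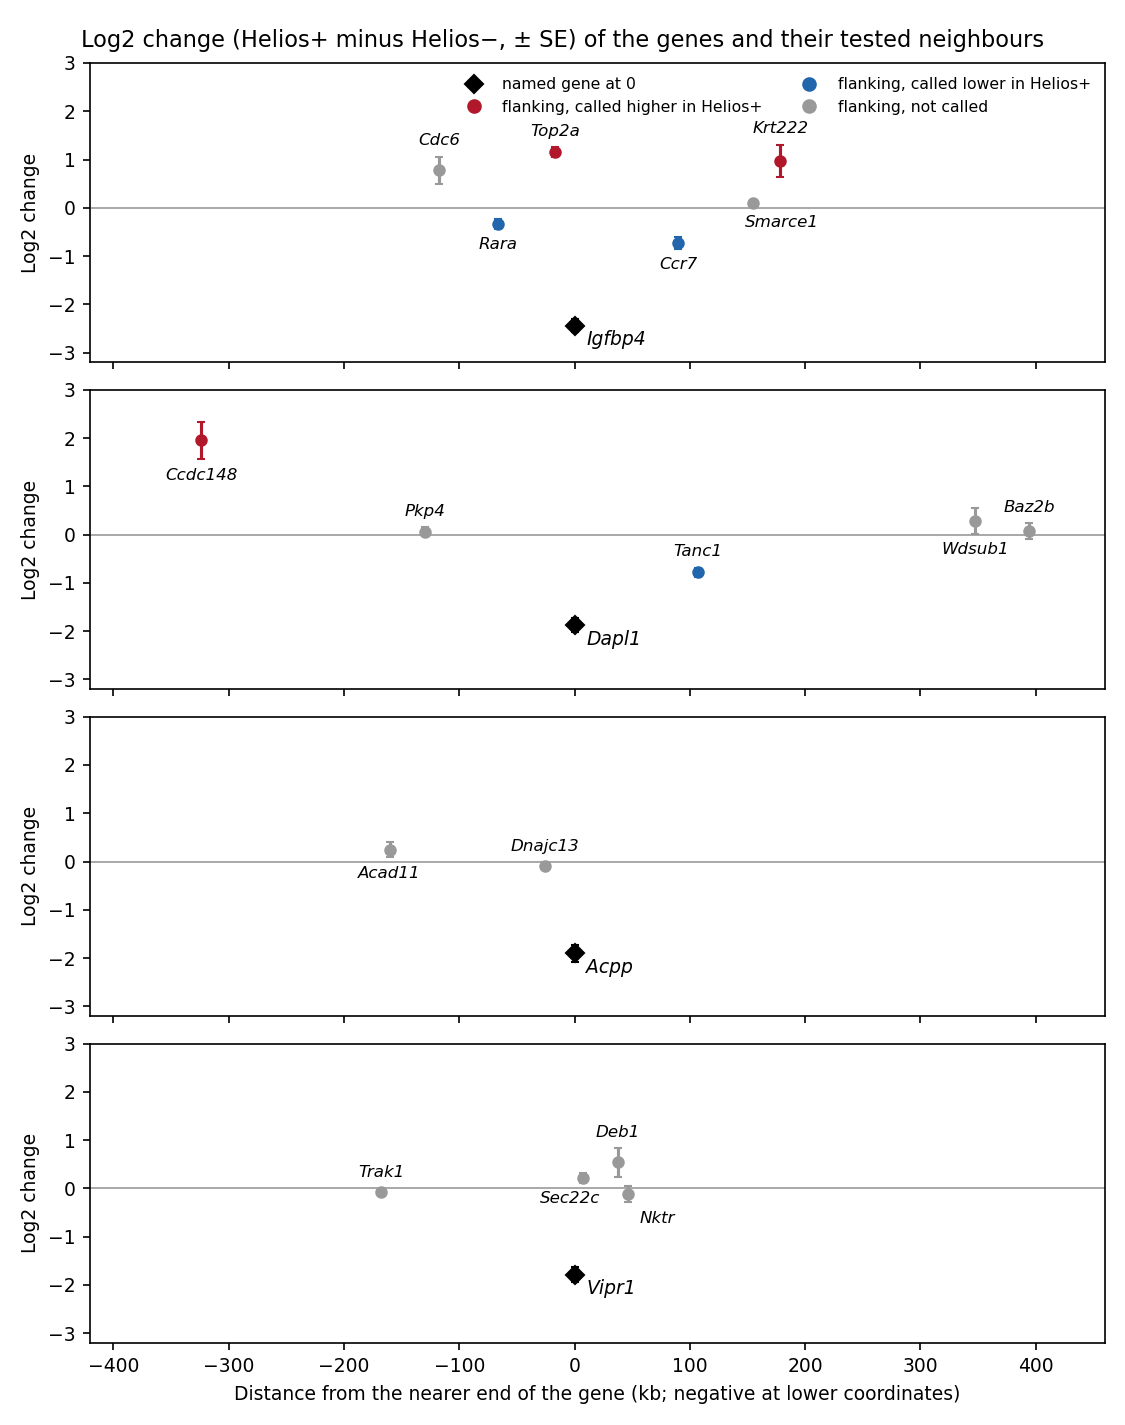
Log2 change (Helios+ minus Helios-, with SE) of Igfbp4, Dapl1, Acpp and Vipr1 at 0 and of their tested neighbours by distance in kb, coloured by limma call (1 neighbour of Acpp is not drawn). Around Igfbp4 calls go both ways, with Top2a at 1.15 and Ccr7 at -0.72, while no neighbour of Acpp or Vipr1 was called, against 24.8% of all genes tested.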

How the data were processed

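The authors deposited a table of normalized counts for 13252 genes, a signal that is never negative. The submitters' processing notes name build mm10, HISAT2 2.0.4, HTSeq and DESeq2 without their roles; the gene annotation, strand setting and any gene filter behind the table are not stated there. The library kit was a stranded SMARTer kit for very low input of total RNA, per the labels. Every deposited value (100%) was a whole multiple, within 0.001, of the value of 1 read in that library, so whole reads were recovered, 4872348 to 6948692 per library.

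Genes with a mean of at least 10 were tested (10718; 2534 left out) with limma 3.58.1 in R 4.3.3 (trend and robust estimation, group as the only term) on log2(normalized count + 1), Benjamini-Hochberg adjusted over all of them; a call is an adjusted p under 0.05. Log2 changes are on that scale, which understates low genes. edgeR 4.0.16 (quasi-likelihood, 2643 genes called) and DESeq2 1.42.0 (2846 called) were run on the recovered reads, against 2655 for limma. The fitting code was tested on simulated data. Equal replicate numbers were taken to pair libraries from a check on the data, since deviations from group means correlated across genes at 0.48, 0.19, 0.39, 0.16 and 0.15 for numbers 1 to 5, all over 0.1. Between unequal numbers the highest correlation was 0.12 and the median -0.03, so the margin was small for numbers 4 and 5. Positions and exon lengths came from GENCODE M21, which matched 13048 of the table's symbols, 1105 of them through RefSeq synonyms.

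The 4 genes and all gene lists were chosen with earlier results of these data known. Named genes were the 4, their paralogues, the 4 genes with the smallest p in each list, the neighbours, the 5 nearest profiles and the genes next in rank. Gnas, Pde7a, Calcrl, Csf1r, Cd8b1, Cr2, Ikzf4, Ctla4, Il2ra and Rn45s were named after their values were seen. Some genes under this rule are not reported here.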

Additional observations from a re-analysis of the deposited data

Results flagged for a closer look

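Among 57 genes named above or drawn from the same lists, 114 groups of 5 libraries were checked for a library far from the other 4, and 5 groups had one, where chance gives about 1 in 20. None of them was a group of Igfbp4, Dapl1, Acpp or Vipr1. Nt5e had 1700.35 normalized counts in Helios+ replicate 2, against 1349 to 1446 in the other Helios+ libraries. Tnfrsf4 had 1316 in Helios+ replicate 1, against 1496 to 1531 in the others. Smarce1, a neighbour of Igfbp4, had 1040.53 in Helios+ replicate 1, against 1105 to 1116 in the others. Stk17b had 2051 in Helios- replicate 3, against 1628 to 1751 in the others, and Cdc6 had 14.8 in Helios- replicate 2, against 6.55 to 8.76 in the others.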

How the results depend on the processing

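The log2 changes of Igfbp4, Dapl1, Acpp and Vipr1 kept their direction under all 19 alternatives (other pseudocounts, filters, scalings and tools, the replicate block, and each library left out) and moved by less than the replicate SD pooled over both groups. The 4 genes were chosen for large decreases without overlap in this same comparison. Their kept direction was thus close to fixed by the choice, and it is only a description. With single libraries left out they ranged from -2.56 to -2.33 for Igfbp4, -1.99 to -1.80 for Dapl1, -2.03 to -1.81 for Acpp and -1.87 to -1.68 for Vipr1. The count of genes called was 4000 with the replicate block, against 2655 without it, and 2259 to 2907 with single libraries left out. The block changed the count called in either direction of each pathway list by at most 1.5 times; by direction, it gave 4 genes higher in VIP and cAMP signalling, 2 lower in the death-associated list, 1 higher in the resting list and 1 lower in the activation list. In the IGF axis 1 to 2 genes were called with single libraries left out, and among the neighbours 4 to 7. Of 53 other genes followed, 41 kept direction and side of the threshold throughout. Direction turned, without a call, for Stk17b (0.019) and Cd4 (0.044) with quantile normalization, and with single libraries left out for Baz2b (-0.064 to 0.18), Nktr (-0.25 to 0.012), Acp6 (-0.18 to 0.075), Foxp3 (-0.0051 to 0.049) and Cd4 (-0.096 to 0.024); the cause was not tested. Low counts limit Dapl1 and Acpp in Helios+ libraries, which rest on 45 to 58 reads per library for Dapl1 and 37 to 91 for Acpp.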
